A study of Homo sapiens with 6 samples.

Results

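Expression of 8 genes of cholesterol synthesis and its control, HMGCS1, SQLE, INSIG1, IDI1, FDFT1, SREBF2, LSS and DHCR7, was examined in human breast cancer cells with and without irradiation. The genes were taken by their symbols from a deposited table of 58735 genes, in which each symbol stood in 1 row, and no lipoprotein receptor gene is among them. RNA was sequenced from MDA-MB-231, a line derived from a breast adenocarcinoma of basal-like type. All 6 libraries came from cells carrying a non-targeting shRNA (shSCR), which the sample labels name SCR and give as genotype WT. Of these, 3 were from cells kept at 0 Gy (control), and 3 were from cells collected 24 h after 10 Gy from a sealed cesium source. Nothing in the labels states that the 3 libraries of a dose came from separate cultures, so p-values measure only the spread between these libraries, which may be technical.

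Cholesterol is built from acetyl-CoA through mevalonate and isoprenoid units to squalene, which is oxidized, folded into lanosterol and trimmed to cholesterol. SREBP-2, the product of SREBF2, is held in the endoplasmic reticulum by SCAP and INSIG proteins while sterols are plentiful, and is carried to the Golgi and cut when sterols fall. The released fragment then binds sterol regulatory elements (SRE) in the promoters of the pathway's enzymes, usually beside sites for NF-Y (a CCAAT box) and Sp1 (a GC box). Intermediates of this route, among them 7-dehydrocholesterol and squalene, and its side products, among them coenzyme Q10, have been linked to lipid peroxidation and ferroptosis, the form of cell death that the study is about.

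The sequences upstream of 4 of these genes are shown, each from a single start site. They hold or lack letters through which the pathway is known to be switched. They are the 250 bases before a RefSeq start site on GRCh38.p14, read 5′ to 3′ on the strand of the gene, and capitals mark each CCAAT box (CCAAT, or ATTGG on the opposite strand) and the SRE core TCACNCCAC.
SREBF2, chr22:41832855-41833104, plus strand: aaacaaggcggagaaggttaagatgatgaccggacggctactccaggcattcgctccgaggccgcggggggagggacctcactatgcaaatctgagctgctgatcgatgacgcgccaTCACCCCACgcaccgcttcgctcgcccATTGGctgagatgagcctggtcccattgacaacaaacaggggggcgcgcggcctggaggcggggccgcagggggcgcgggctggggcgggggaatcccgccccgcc
HMGCS1, chr5:43313413-43313662, minus strand: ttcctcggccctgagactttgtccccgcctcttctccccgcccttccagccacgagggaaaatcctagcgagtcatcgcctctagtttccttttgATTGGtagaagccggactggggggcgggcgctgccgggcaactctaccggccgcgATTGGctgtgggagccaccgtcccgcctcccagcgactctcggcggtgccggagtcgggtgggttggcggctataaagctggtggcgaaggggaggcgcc
IDI1, chr10:1049120-1049369, minus strand: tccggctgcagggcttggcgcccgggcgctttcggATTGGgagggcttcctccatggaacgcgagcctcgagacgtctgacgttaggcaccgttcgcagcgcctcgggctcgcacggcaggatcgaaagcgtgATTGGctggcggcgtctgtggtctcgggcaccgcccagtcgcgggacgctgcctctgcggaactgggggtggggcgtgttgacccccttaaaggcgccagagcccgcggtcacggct
DHCR7, chr11:71449044-71449293, minus strand: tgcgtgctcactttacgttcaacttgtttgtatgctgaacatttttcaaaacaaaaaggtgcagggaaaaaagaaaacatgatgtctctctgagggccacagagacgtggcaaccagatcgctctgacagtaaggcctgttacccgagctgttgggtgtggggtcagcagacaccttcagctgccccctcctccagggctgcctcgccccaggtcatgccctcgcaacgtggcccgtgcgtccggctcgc

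Promoter windows from 250 bases before to 50 after a start site were found in the RefSeq table for 6 of the 8 genes, SREBF2, HMGCS1, IDI1, INSIG1, LSS and DHCR7. A CCAAT box on either strand was found in 5 of the 6, beside 34.61% of all 35116 windows in the table. All of them were in the ATTGG orientation. Counted from the start site as 0, SREBF2 held its CCAAT box at -106 to -102, LSS at -150 to -146 and INSIG1 at -170 to -166. HMGCS1 and IDI1 each held 2. The SRE core was found in SREBF2 alone among these windows, at -133 to -125, and in 1.13% of all windows. A GC box (GGGCGG, both strands, overlapping matches counted) was found in 5 of the 6 windows, beside 44.95% of all windows, with 7 matches in LSS, 6 in INSIG1 and 1 in IDI1. The DHCR7 window searched held none of these letters. It lies 3825 bases from the 5′ end of the gene as the deposited table lists it, so it may serve another transcript. For a gene with more than 1 window, only the nearest to that end was searched. DHCR7 had 2 windows, and whether its other window holds these letters was not tested. Of 12 other enzymes of the pathway with a window, 9 held a CCAAT box and 10 a GC box. These matches are of letters only, and the SRE is known in many forms that this search did not cover.

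**Figure D1:**
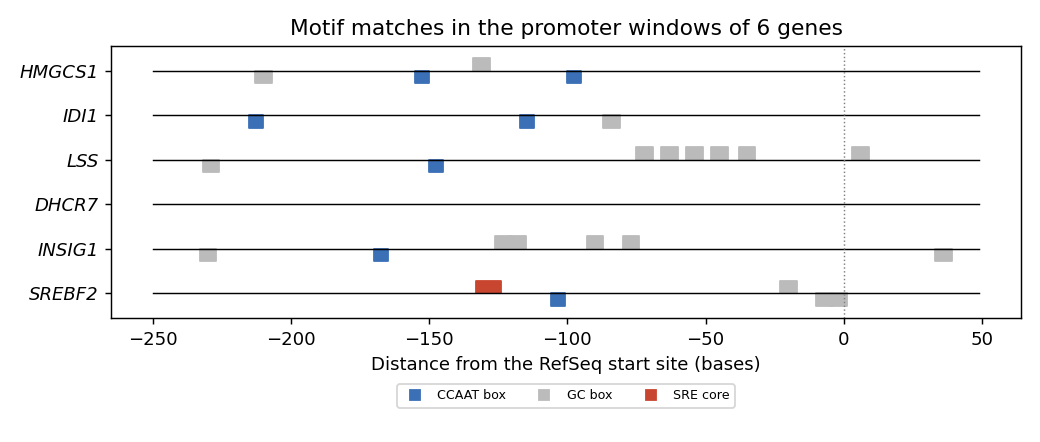
Motif matches in the RefSeq promoter windows of 6 genes, 1 row for each gene. The horizontal axis is the distance from the start site in bases, and each bar is a match of 1 motif. Bars above a line are matches on the strand of the gene, and bars below it are on the opposite strand. The CCAAT boxes lie between -215 and -96 in 5 genes, the SRE core lies in SREBF2, and the DHCR7 row is empty.

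All 8 genes were expressed at 0 Gy. Levels are FPKM (fragments per kilobase of gene, scaled to sequencing depth), so they can be compared between genes. LSS, which folds oxidized squalene into lanosterol, was highest at 23.3 ± 0.722 FPKM (SD, n = 3), at the 81.5 percentile of the 12128 genes whose mean reached 1 FPKM. SQLE, the squalene epoxidase often taken as a slow step of the pathway, was lowest at 5.07 ± 0.121 FPKM and the 40.3 percentile. The highest mean was 4.60 times the lowest. Between them, in falling order, stood DHCR7, INSIG1, SREBF2, IDI1, FDFT1 and HMGCS1. The 3 libraries of LSS lay above those of DHCR7, DHCR7 above INSIG1, FDFT1 above HMGCS1, and HMGCS1 above SQLE. The ranges of INSIG1 and SREBF2, of SREBF2 and IDI1, and of IDI1 and FDFT1 overlapped, while every SREBF2 value lay above every FDFT1 value. Compared within libraries, IDI1 was above FDFT1 in all 3, INSIG1 above SREBF2 in 2, and SREBF2 above IDI1 in 2. At 10 Gy LSS and DHCR7 again held the first 2 places and HMGCS1 and SQLE the last 2, while IDI1, INSIG1, FDFT1 and SREBF2 stood between them in that order.

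**Figure D2:**
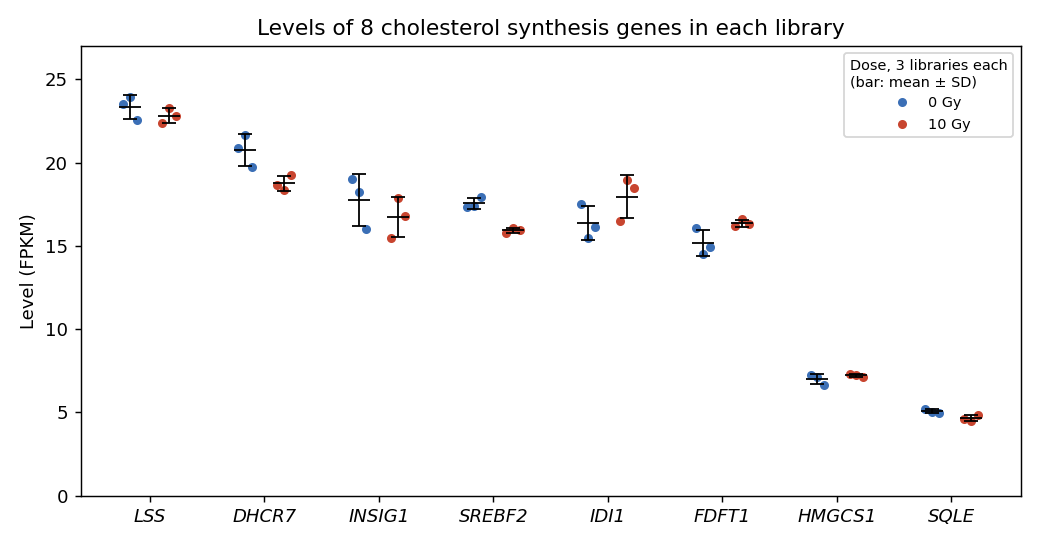
Level of each gene in each library, in FPKM on a linear axis from 0, with genes in falling order of their 0 Gy mean. Points are single libraries, 3 at 0 Gy and 3 at 10 Gy, and bars are the mean ± SD. SREBF2, DHCR7 and SQLE show all 10 Gy points below the 0 Gy points and FDFT1 shows them above, while LSS and SQLE stand at the top and the bottom at both doses.

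After 10 Gy, the changes of these genes were small and went both ways. On the values as deposited, SREBF2 and DHCR7 were lower by a limma test across 12128 genes, 2 of 8 called genes, and no gene was called higher. A gene is called here at a Benjamini-Hochberg adjusted p under 0.05, and changes are on the log2(FPKM + 1) scale, which understates those of low genes. Of all genes tested, 35.6% were called, 11.9% higher and 23.7% lower, so 2 of 8 is near the background. None of the 8 was called at a change of at least 1.3-fold on this scale, against 5.77% of all genes. The study used a threshold of 1.3-fold for knockdown of a transcription factor against control cells, which is another comparison. Without adjustment, limma gave p under 0.05 for 3 of the 8, 1 higher and 2 lower, beside 46.7% of all genes in either direction, again none at 1.3-fold, and limma-voom on recovered reads called 2 lower and none higher. The 95% intervals of all 8 changes lay between -0.25 and 0.27, inside the 0.38 that 1.3-fold comes to on the log2 scale, which held for the values as deposited. The median change of the 8 was -0.06, beside -0.04 over all genes tested. In 4 of the 8 genes the libraries of the 2 doses did not overlap, beside 51.9% of all genes.

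The direction of these calls rests on how the libraries were scaled. The depth by which the deposited values were divided was 0.973 to 0.991 times a library's own reads at 0 Gy and 1.03 to 1.04 times at 10 Gy, ranges that did not overlap. Rescaled to TPM (length-scaled values brought to the same sum in every library), the values gave 3 genes called higher by limma, HMGCS1, IDI1 and FDFT1, and both lower calls were lost. The upper bound of the IDI1 interval was then 0.381, past the 0.379 of 1.3-fold. Upper quartile factors and each library's own read total gave IDI1 and FDFT1 higher, and median-of-ratios factors gave FDFT1 higher, and the lower calls were lost in these 3 as well. Over all genes, TPM moved the median change by 0.11, from -0.04 to 0.07, and the calls from 1443 higher and 2874 lower to 3127 higher and 1071 lower. Relative to the median of all genes, the picture moved little. A scaling shifts every gene by a like step, which subtracting the median takes out, so narrow ranges here are no test of stability. FDFT1 lay 0.14 to 0.16 above that median and IDI1 0.16 to 0.18 above it over the deposited values, these rescalings and limma-voom. SREBF2 lay -0.09 to -0.08 and DHCR7 -0.10 to -0.08 from it over the same settings. Which scaling is nearest to RNA per cell was not tested, and fewer cells making a transcript cannot be told apart from less transcript per cell.

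**Figure D3:**
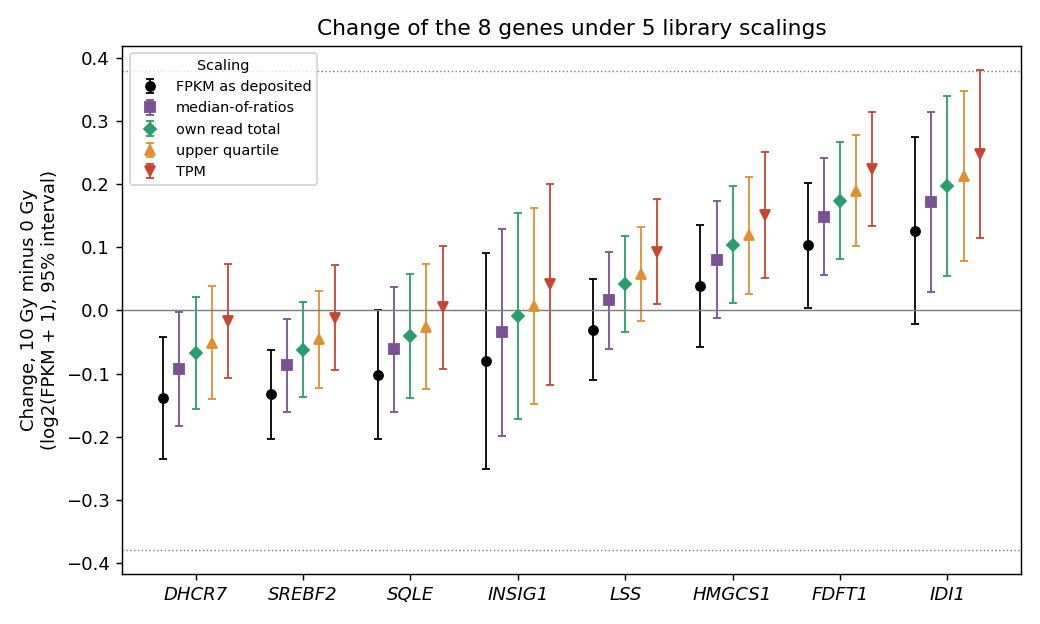
Change of each gene, 10 Gy minus 0 Gy, in log2(FPKM + 1) units with its 95% interval, under 5 scalings of the libraries shown by marker. For each gene the points climb from the deposited scaling to TPM by a like step, so SREBF2 moves from -0.13 to -0.01 and FDFT1 from 0.10 to 0.22.

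HMGCS1 and IDI1 act before squalene. HMGCS1 (chromosome 5, 43289395 to 43313512, GRCh38) joins acetyl-CoA to acetoacetyl-CoA on the way to mevalonate. Its levels were 7.23, 7.15 and 6.67 FPKM at 0 Gy and 7.33, 7.22 and 7.13 FPKM at 10 Gy. The doses overlapped, and the lowest value was that of replicate 3 at 0 Gy. The change was 0.04 ± 0.041 (SE), limma adjusted p = 0.499, with an interval from -0.06 to 0.14, and under TPM it was 0.15 with an adjusted p of 0.0305. IDI1 (chromosome 10, 1039152 to 1049170) interconverts the 5-carbon isoprenoid units. Its levels were 17.5, 15.5 and 16.1 FPKM at 0 Gy and 16.5, 18.9 and 18.5 FPKM at 10 Gy. The first 10 Gy library sat among the 0 Gy values and the other 2 were above all of them. The change was 0.13, with an interval from -0.02 to 0.27 and a limma adjusted p of 0.157. Under TPM it was 0.25 with an adjusted p of 0.0148, and its sign was positive in all 18 alternatives run.

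FDFT1, SQLE, LSS and DHCR7 carry the route from farnesyl units to cholesterol. FDFT1 (chromosome 8, 11795573 to 11839309) makes squalene. Its levels were 16.1, 14.5 and 14.9 FPKM at 0 Gy and 16.2, 16.6 and 16.3 FPKM at 10 Gy. All 10 Gy values were above the 0 Gy values, by little over the first control library. The change was 0.10, with a limma adjusted p of 0.0962, and 0.22 under TPM, with an adjusted p of 0.00519. Without the first 0 Gy library it was 0.14 and called, with an adjusted p of 0.0165, the only omission of 1 library that gave a call. FDFT1 was called in 5 of 18 alternatives, the 4 other scalings among them. Over the 18 its change ran from 0.07 to 0.22, and the limma adjusted p reached 0.230. SQLE (chromosome 8, 124998497 to 125022283) oxidizes squalene, with 5.20, 5.05 and 4.95 FPKM at 0 Gy and 4.62, 4.49 and 4.85 FPKM at 10 Gy. All 10 Gy values were below the 0 Gy values. The change was -0.10, limma adjusted p = 0.108, and near 0 under TPM, where its sign turned.

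LSS (chromosome 21, 46188141 to 46228824) had 23.5, 23.9 and 22.5 FPKM at 0 Gy and 22.4, 23.3 and 22.8 FPKM at 10 Gy. The doses overlapped widely. Its change as deposited was -0.03, with an interval from -0.11 to 0.05 and a limma adjusted p of 0.522, and its sign turned under 4 other scalings. DHCR7 (chromosome 11, 71428193 to 71452868) reduces 7-dehydrocholesterol to cholesterol in the last step of one arm of the pathway. Its levels were 20.9, 21.7 and 19.7 FPKM at 0 Gy and 18.7, 18.4 and 19.2 FPKM at 10 Gy. Every 10 Gy library was below every 0 Gy library. DHCR7 fell by 0.14 ± 0.041 (SE) on the log2 scale on the values as deposited, with a limma adjusted p of 0.0359, and under TPM the change was -0.02 with an adjusted p of 0.76. The call held in 6 of 18 alternatives. It was lost when any 1 library other than replicate 3 at 0 Gy was left out, with limma adjusted p values of 0.0674 and 0.0847 without replicates 1 and 2 at 0 Gy and 0.105, 0.118 and 0.0585 without replicates 1, 2 and 3 at 10 Gy.

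SREBF2 and INSIG1 control the pathway. SREBF2 (chromosome 22, 41833079 to 41907308) encodes the transcription factor SREBP-2, and its own promoter holds the SRE core shown above. Its levels were 17.3, 17.4 and 17.9 FPKM at 0 Gy and 15.8, 16.0 and 15.9 FPKM at 10 Gy. The doses did not overlap, and SREBF2 was the least variable of the 8, with a coefficient of variation of 1.83% at 0 Gy and 0.897% at 10 Gy. SREBF2 fell by 0.13 ± 0.030 (SE) as deposited, limma adjusted p = 0.0142, while under TPM the change was -0.01 with an adjusted p of 0.825. The call held in 13 of 18 alternatives and was lost under 4 other scalings and without the first 10 Gy library, where the adjusted p was 0.0607. INSIG1 (chromosome 7, 155297776 to 155310235), which anchors SCAP in the endoplasmic reticulum and is itself a target of SREBP, had 19.0, 18.3 and 16.0 FPKM at 0 Gy and 15.5, 17.9 and 16.8 FPKM at 10 Gy. It was the most variable of the 8 at 0 Gy, with a coefficient of variation of 8.84%, and the doses overlapped. Its change was -0.08, with an interval from -0.25 to 0.09 and a limma adjusted p of 0.422.

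Ratios between genes within a library do not depend on its scaling, and were taken after the changes had been seen. Of the 28 pairs of the 8 genes, 14 did not overlap between doses, or 50%, beside 47.1% of all pairs of tested genes. The ratio of FDFT1 to SREBF2 was 0.927, 0.834 and 0.833 at 0 Gy and 1.03, 1.03 and 1.02 at 10 Gy. Every 10 Gy library thus held slightly more FDFT1 than SREBF2 per length, and every 0 Gy library less. The log2 difference was 0.25, with an exact two-sided permutation p of 0.1, the smallest that 3 libraries against 3 allow, and 0.2 after Benjamini-Hochberg adjustment over the 28 pairs. IDI1 to SREBF2 went from 0.933 ± 0.066 to 1.13 ± 0.073 (SD, n = 3 each), again without overlap. FDFT1 to DHCR7 went from 0.732 ± 0.055 to 0.872 ± 0.029, without overlap. Between the 2 genes called lower, the ratio of SREBF2 to DHCR7 was 0.847 ± 0.055 at 0 Gy and 0.849 ± 0.023 at 10 Gy, and the doses overlapped. IDI1 to FDFT1 was 1.08 ± 0.011 and 1.10 ± 0.069, and overlapped.

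**Figure D4:**
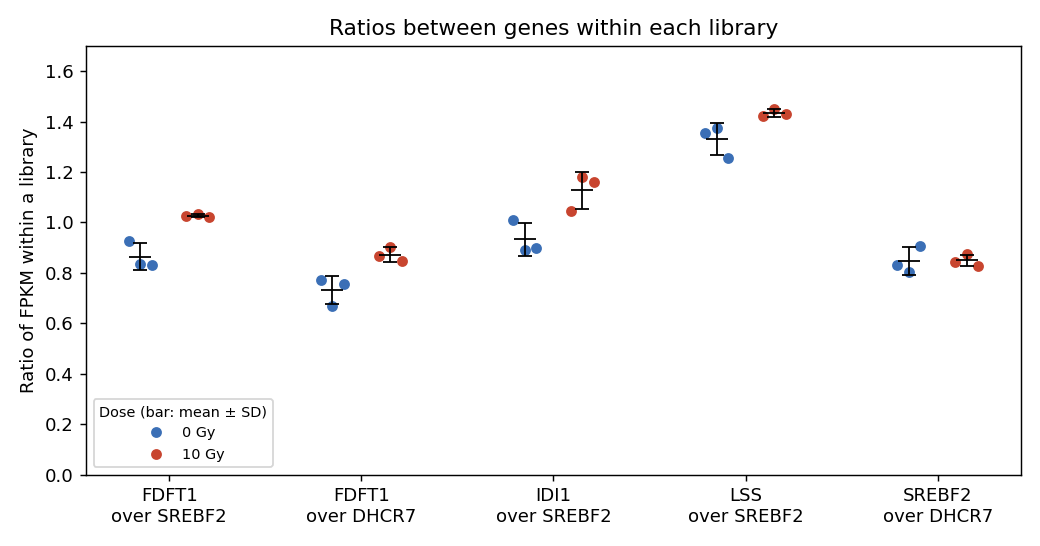
Ratios of FPKM between pairs of genes within each library, on a linear axis from 0. Points are libraries, 3 at each dose, and bars are the mean ± SD. The ratio of FDFT1 to SREBF2 lies at or below 0.927 at 0 Gy and at or above 1.02 at 10 Gy, whereas that of SREBF2 to DHCR7 overlaps.

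Among 15 other enzymes of the pathway, 5 were called lower and 2 higher (46.7%, beside 35.6% of all genes tested). Their median change was -0.11 beside -0.04 for all genes. Under TPM 3 were called higher and 2 lower. PMVK, which phosphorylates phosphomevalonate, had 25.3, 24.6 and 22.8 FPKM at 0 Gy and 18.8, 16.0 and 18.0 FPKM at 10 Gy. It fell by 0.44 (limma adjusted p = 0.00288), the only one called at 1.3-fold on the log2(FPKM + 1) scale. ACAT2, the cytosolic thiolase that starts the route, fell by 0.28 (limma adjusted p = 0.00184), and both calls held in all 18 alternatives. FDPS, which makes farnesyl diphosphate, and the sterol enzymes LBR and MSMO1 fell by 0.15, 0.14 and 0.20 as deposited, and these 3 calls were lost in 8 or 9 of 18 alternatives, the 4 other scalings among them. Single libraries decided them too: by limma the adjusted p was 0.0517 to 0.0757 for FDPS without replicate 2 at 0 Gy or 2 or 3 at 10 Gy, 0.0544 to 0.0761 for LBR without replicate 2 at 0 Gy or 1 or 3 at 10 Gy, and 0.0576 to 0.0677 for MSMO1 without replicate 2 or 3 at 0 Gy or 1 or 3 at 10 Gy. TM7SF2, a sterol reductase with the same reaction as LBR, was low, at 1.86 ± 0.425 FPKM at 0 Gy and 2.64 ± 0.139 FPKM at 10 Gy. It rose by 0.36, a call lost without replicate 2 or 3 at 0 Gy or any library at 10 Gy (limma adjusted p from 0.0612 to 0.1004). With 0.1 FPKM added in place of 1, its change was 0.50, past 1.3-fold, and was called (limma adjusted p = 0.0360).

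A list of 10 genes for SREBP control held factors that process or restrain SREBP, SREBF1 itself and the antisense gene SREBF2-AS1. Of the 10, 2 were called lower and only SREBF1 higher, or 30% beside 35.6% of all genes tested. That balance turned with scaling: TPM gave 5 higher and lost the lower calls, median-of-ratios factors gave 2 higher and 1 lower, and upper quartile factors and own read totals each gave 4 higher and 1 lower. SREBF1, the paralog of SREBF2 best known for driving fatty acid genes, went from 17.2 ± 0.587 to 20.8 ± 0.595 FPKM (SD, n = 3 each). All 10 Gy libraries were above the 0 Gy libraries. It rose by 0.26 (limma adjusted p = 0.00296), and that call held in all 18 alternatives. SCAP, the escort of SREBP, fell by 0.15 as deposited (limma adjusted p = 0.0273), a call lost in 8 of 18 alternatives, among them leaving out any 1 library at 10 Gy (0.0520 to 0.0983). RNF139, a ubiquitin ligase of the endoplasmic reticulum, fell by 0.28 (limma adjusted p = 0.0133), a call lost under TPM, where the change was -0.17 and the adjusted p 0.0830. SREBF2-AS1 lies antisense to SREBF2, and their spans on the chromosome, introns included, overlap by 1587 bases. It was at 1.13 ± 0.129 FPKM at 0 Gy and 1.51 ± 0.181 FPKM at 10 Gy, a change of 0.23 (limma adjusted p = 0.0657). Whether counting used strand is not stated, so reads from any shared exon bases cannot be told apart between the 2 genes. The span of DHCR7 likewise overlaps by 3484 bases that of the antisense gene AP002387.1, which has a listed length of 680 bases. AP002387.1 was at 3.29 FPKM at 0 Gy and 2.95 FPKM at 10 Gy. The other genes that overlap a member were at 1.16 FPKM or lower on average at either dose.

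Of 8 fatty acid genes linked to SREBP-1, 4 rose and 1 fell (62.5% called, beside 35.6% of all genes tested). As deposited, none of these 8 was called at 1.3-fold on the log2(FPKM + 1) scale, beside 5.77% of all genes tested. The median change was 0.22, and under TPM 6 were called higher. FASN, the fatty acid synthase, went from 62.7 ± 1.58 to 80.2 ± 1.76 FPKM, a rise of 0.35 (limma adjusted p = 0.000707). ACSS2, ACACA and SCD, which make acetyl-CoA, malonyl-CoA and monounsaturated acyl-CoA, rose by 0.34, 0.33 and 0.30, and of these 3 calls that of ACACA was lost without the filter on low values (limma adjusted p = 0.0505). FADS1, the delta-5 desaturase, fell by 0.23 as deposited (limma adjusted p = 0.0205), a call lost in 6 of 18 alternatives, among them those without replicate 1 or 2 at 10 Gy (0.0711 and 0.0746). The difference between these genes and the cholesterol genes was not itself tested.

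Of 13 genes of sterol uptake and endosomal export, 4 rose and 1 fell (38.5% called, beside 35.6% of all genes tested). The median change was 0.00, and under TPM 7 were called higher and 1 lower. LRP1, a large endocytic receptor, rose from 3.01 ± 0.231 to 5.62 ± 0.558 FPKM, a change of 0.72 (limma adjusted p = 0.000964). LRP8, the receptor for apolipoprotein E and reelin, fell from 4.72 ± 0.157 to 3.28 ± 0.135 FPKM, a change of -0.42 (limma adjusted p = 0.00123). MYLIP, a ubiquitin ligase of lipoprotein receptors, rose by 0.21, and its call was lost in 5 of 18 alternatives, among them those without replicate 3 at 0 Gy or 2 or 3 at 10 Gy (limma adjusted p from 0.0569 to 0.0701). Of 9 genes of efflux and storage, 7 passed the filter on low values, and 2 were called higher and 2 lower, or 3 higher under TPM. As deposited, 57.1% of these 7 were called, beside 35.6% of all genes tested. ABCA1, the cholesterol exporter, had 0.727, 0.992 and 0.736 FPKM at 0 Gy and 1.79, 1.83 and 1.74 FPKM at 10 Gy, a change of 0.62. ABCA1 passed the filter only through the 10 Gy libraries, so its change is given as a description. It is still counted among the genes called higher and in the 57.1%, which is therefore not read as a result about this list. NR1H3, the liver X receptor alpha, rose by 0.30, NR1H2, its beta form, fell by 0.20, and SOAT1, which esterifies cholesterol, fell by 0.14. The NR1H2 call held in 17 of 18 alternatives. That of NR1H3 held in 12 of 17 and was lost without replicate 2 or 3 at 0 Gy or 1 or 2 at 10 Gy (limma adjusted p from 0.0644 to 0.0996). That of SOAT1 held in 11 of 18 and was lost without replicate 2 or 3 at 10 Gy (0.0689 and 0.0530) and under the 4 other scalings. The exporter ABCG1 and the apolipoprotein APOE were under the filter and were not tested, with means of 0.425 and 0.256 FPKM at 0 Gy and 0.934 and 0.489 FPKM at 10 Gy.

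Of 13 genes on side branches of the mevalonate route, 4 were called lower on the values as deposited, and 1 was under TPM. As deposited that was 30.8%, beside 23.7% of all genes called lower, and the median change was -0.14. PDSS1 and PDSS2, which build the tail of coenzyme Q10, fell by 0.22 and 0.17, and DHDDS, which starts dolichol, fell by 0.20. These 3 calls held in 15 of 18, 6 of 17 and 8 of 18 alternatives. That of PDSS2 was lost without any 1 library other than replicate 3 at 0 Gy (limma adjusted p from 0.0518 to 0.120), and that of DHDDS without replicate 2 or 3 at either dose (0.0662 to 0.0854).

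**Figure D5:**
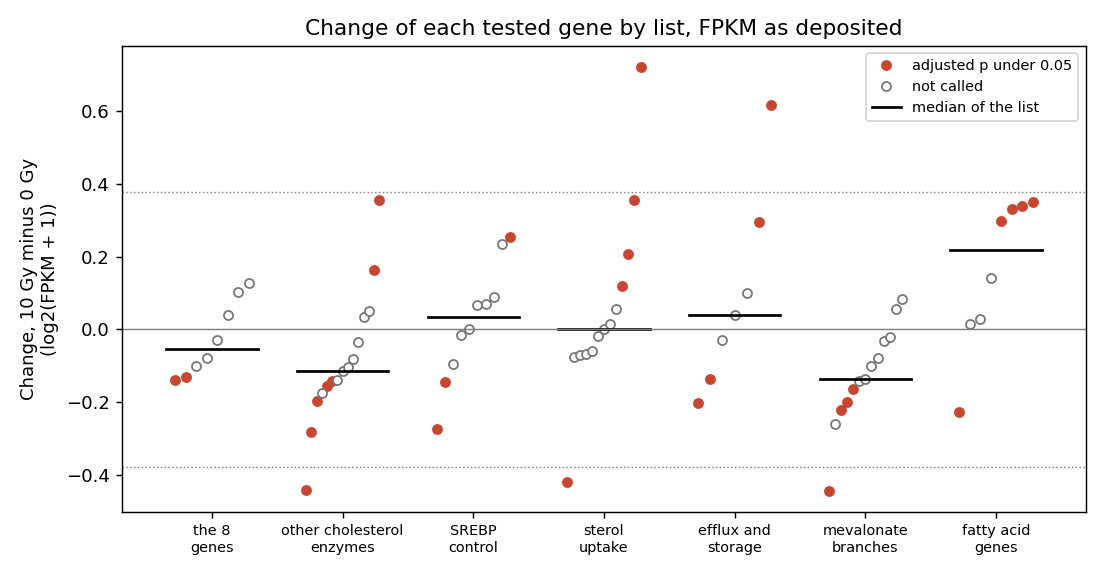
Change of each tested gene, 10 Gy minus 0 Gy, in log2(FPKM + 1) units on the values as deposited, with 1 column for each list. Filled points are genes called by limma, open points are not called, and black lines are list medians, which run from -0.14 for the mevalonate branches to 0.22 for the fatty acid genes.

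The genes whose profile over the 6 libraries was most like that of HMGCS1 were LGALS3BP and DENND3, with a root mean square difference of 0.0127 and 0.0128 in log2(FPKM + 1) units, followed by ZFAND5, INTS9 and IP6K1. For INSIG1 they were AC093323.1 and PLBD1, at 0.0343 and 0.0350, followed by PLSCR4, UBE2Q1 and RFXAP. For the mean of the 8 genes, C6orf47 was closest at 0.00833. None of these is an enzyme or regulator in the lists above.

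Libraries held 15643641 to 28861781 reads recovered on genes, and 334 to 4847 reads on each of the 8 genes. Correlations across genes were at least 0.992 between libraries of a dose and at most 0.989 between doses. The 6 genes expected to be high in this line, VIM, CD44, KRT18, KRT81, AXL and EGFR, summed to 1248 to 1394 FPKM at 0 Gy and 1060 to 1089 FPKM at 10 Gy. Of 6 expected to be low, 5 were under 1 FPKM in every library, PGR and KRT5 were listed at 0, and GATA3 was at 2.70 to 3.24 FPKM. Of the markers of blood, endothelial, stromal and liver cells, PTPRC, COL3A1 and ALB were under 1 FPKM in every library. PECAM1 averaged 1.22 FPKM at 0 Gy and 1.94 FPKM at 10 Gy, and its part in the changes above was not tested.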

How the data were processed

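Libraries were polyA-enriched, and per the labels HISAT2 and GRCh38 were used; the counting program is not given in the sources used here. The authors deposited FPKM values with GENCODE 29 identifiers. All values gave whole reads (tolerance 0.1) once multiplied by gene length and implied depth, and these summed to 15643641 to 28861781 per library. Libraries were grouped by the treatment label. The 12128 genes whose mean reached 1 FPKM were compared on log2(FPKM + 1) with limma 3.58.1 in R 4.3.3 (eBayes with trend, Benjamini-Hochberg adjustment over all genes), since a count test does not suit FPKM; limma-voom with TMM on the recovered reads was an alternative. The others covered pseudocount, filter, scaling, replicate block, trend, gene type and each library left out. The procedure was tested on simulated data. The members and lists were chosen with earlier results of these data known. All 8 members were named, with listed genes called at 1.3-fold, or the 4 with the largest change in a list without one, and for like profiles 5 protein-coding genes each for HMGCS1, INSIG1 and the mean of the 8. ACAT2, FDPS, LBR, MSMO1, TM7SF2, NR1H2, NR1H3, SOAT1, PDSS1, PDSS2, DHDDS, FADS1, MYLIP, ABCG1 and APOE were added after their values were seen, and some listed genes, 1 of them picked by this rule, are not reported here. Promoter sequences are from RefSeq (GRCh38.p14). Plots used matplotlib 3.10.9 under Python 3.11.15.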

Additional observations from a re-analysis of the deposited data

How the results depend on the processing

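With 3 libraries a dose, changes this small depend on scaling, and the deposited factor differed between doses; which scaling is nearest to RNA amounts was not tested. Signs turned for SQLE (0.0047) under TPM, for INSIG1 under TPM (0.041) and upper quartile factors (0.0070), and for LSS under TPM (0.093), median-of-ratios factors (0.016), upper quartile factors (0.058) and own read totals (0.042), a setting chosen after seeing the data. SREBF2, DHCR7, HMGCS1, IDI1 and FDFT1 kept their sign in all 18 alternatives. Since the 4 other scalings moved changes upward, they could not turn those of HMGCS1, IDI1 and FDFT1, which were positive as deposited. Over all genes, calls were 1443 higher and 2874 lower as deposited, 3127 and 1071 under TPM, 1945 and 2047 under median-of-ratios factors, 2556 and 1444 under upper quartile factors, 2294 and 1651 with own read totals and 1969 and 3085 by limma-voom. Without a filter, where more genes share the adjustment, calls numbered 1 member, 2 pathway enzymes, 3 uptake, 2 branch and 3 fatty acid genes. With a minimum of 5 FPKM, they were 2 uptake and 2 efflux genes, since fewer are tested. TPM gave 5 SREBP control, 8 uptake and 1 branch gene; median-of-ratios factors 1 member, 4 enzymes and 2 branch genes; upper quartile factors and own read totals each 4 enzymes, 5 SREBP control and 1 branch gene; in these cases the cause was not tested. Fitting without the trend left 1 member. Leaving out each library in turn gave 2660 to 3993 calls over all genes, 0 to 2 members, 2 to 6 enzymes, 2 to 3 SREBP control, 3 to 5 uptake, 2 to 4 efflux, 2 to 4 branch and 4 to 5 fatty acid genes, and kept 6 to 8 places in the order of levels. Libraries of the same replicate number did not deviate together (correlations -0.0405, -0.0349 and -0.101, highest between other numbers 0.0937). Whether those of the same number were prepared together is not stated, and these correlations cannot settle it. With the replicate block, 3503 genes were called against 4317, with 1 member (SREBF2, adjusted p = 0.0433, limma) and 3 uptake genes.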
